A study of Mus musculus with 9 samples.

Results

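The SR proteins, the heterogeneous nuclear ribonucleoproteins (hnRNPs), the kinases that phosphorylate SR proteins and a few related splicing regulators were taken from the expression table by gene symbol. The rule took every Srsf symbol with a number, every symbol starting with Hnrnp, Clk1 to Clk4, Srpk1 to Srpk3, and Tra2a, Tra2b, Ptbp1, Ptbp2, Srrm1, Srrm2, Srrm4, Nova1, Nova2, Rbfox1 and Rbfox2. It found 47 of the 23420 symbols in the table. They are 13 SR proteins (Tra2a and Tra2b among them), 3 SR-related matrix proteins, 20 hnRNPs with the Ptbp genes, 7 kinases and 4 tissue-restricted regulators. The rule reads symbols only, but the genes were put forward with results of these data known, so their values are given as a description and no p-value was computed over the group.

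SR proteins bind RNA, mostly at exonic enhancers, and use a domain rich in arginine and serine to bring the splicing machinery to a nearby splice site. Many hnRNPs bind the same transcripts and block or loop out exons, so that the balance of both families sets which exons are kept. Srpk kinases phosphorylate the arginine-serine domain in the cytoplasm, which lets SR proteins enter the nucleus, and Clk kinases phosphorylate it further in the nucleus. In the nervous system, neural progenitors rely on Ptbp1 and young neurons on its paralogue Ptbp2, and Srrm4, Nova and Rbfox proteins direct neuron-type exons. Several of these genes limit their own protein by splicing in exons that expose the transcript to decay, which a value per gene does not show.

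RNA was sequenced from neural stem cells of the hippocampus of wild-type C57BL/6J mice aged 2 days, with 3 libraries in each of 3 groups. The cells had been moved to a differentiation medium lacking the growth factors bFGF and EGF, in all groups, and received 3 µM NAT, 3 µM P7C3-A20 or the vehicle DMSO. NAT is named in the labels only as a new small molecule, while P7C3-A20 belongs to the aminopropyl carbazoles, studied as protective agents for young neurons of the hippocampus. The labels call the libraries biological replicates but do not name the cultures or animals behind them, and the p-values therefore rest on a spread among libraries that may be technical.

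Reads recovered from the table numbered 12738006 to 13516248 in NAT, 15380977 to 16929714 in P7C3-A20 and 11487218 to 13604222 in DMSO libraries. Progenitor markers were abundant, with the 7 listed genes (Nes, Sox2 and Fabp7 among them) summing to 18280 to 18740 TPM (a transcript level corrected for gene length and library size) in NAT, 17300 to 18210 TPM in P7C3-A20 and 18890 to 19310 TPM in DMSO libraries. The 13 neuron markers summed to 791.8 to 835.8 TPM in NAT, 773.5 to 824.5 TPM in P7C3-A20 and 808.9 to 839.1 TPM in DMSO libraries, and none was listed at 0. The 6 astrocyte markers summed to 4226 to 4445 TPM in NAT, 4034 to 4308 in P7C3-A20 and 3964 to 4249 in DMSO libraries. The 8 oligodendrocyte-lineage markers summed to 3083 to 3267 TPM in NAT, 3213 to 3767 in P7C3-A20 and 3242 to 3376 in DMSO libraries. The 5 genes of dividing cells summed to 653.3 to 698.1 TPM in NAT, 537.7 to 610.9 TPM in P7C3-A20 and 586.5 to 698.6 TPM in DMSO libraries. Microglial markers stayed at or below 1.582 TPM in sum, with Cx3cr1, C1qc and Trem2 listed at 0 in all 9 libraries, and blood, endothelial and meningeal markers reached at most 3.425 TPM in sum. The ribosomal precursor Rn45s was at 9583 to 13980 TPM in NAT, 7947 to 15000 TPM in P7C3-A20 and 17230 to 21840 TPM in DMSO libraries, the last above both compounds. The part of depth, progenitor, glial and dividing-cell markers and ribosomal RNA in the differences below was not tested.

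The splicing genes were among the more abundant transcripts of these cells. All 47 reached at least 1 TPM in at least 3 libraries and so entered the test, and their median level was 116 TPM, against 26.4 TPM over the 13839 genes tested. Of the 47 genes, 28 averaged above 100 TPM, 41 lay above the median of all tested genes, and 4 stayed below 10 TPM. The low genes were Srsf12, Srrm4, Srpk3 and Rbfox1. The spread within groups was also small, with a median coefficient of variation of 3.25% for the splicing genes and 5.35% for all genes tested. The hnRNPs gave the largest share, summing to 5820 ± 84.2 TPM in NAT, 5773 ± 55.9 TPM in P7C3-A20 and 5780 ± 26.0 TPM in DMSO libraries (SD, n = 3 each). The SR proteins summed to 2023 ± 60.4 TPM in NAT, 2046 ± 37.5 TPM in P7C3-A20 and 1964 ± 35.4 TPM in DMSO libraries, sums that overlapped between NAT and DMSO but not between P7C3-A20 and DMSO.

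**Figure D1:**
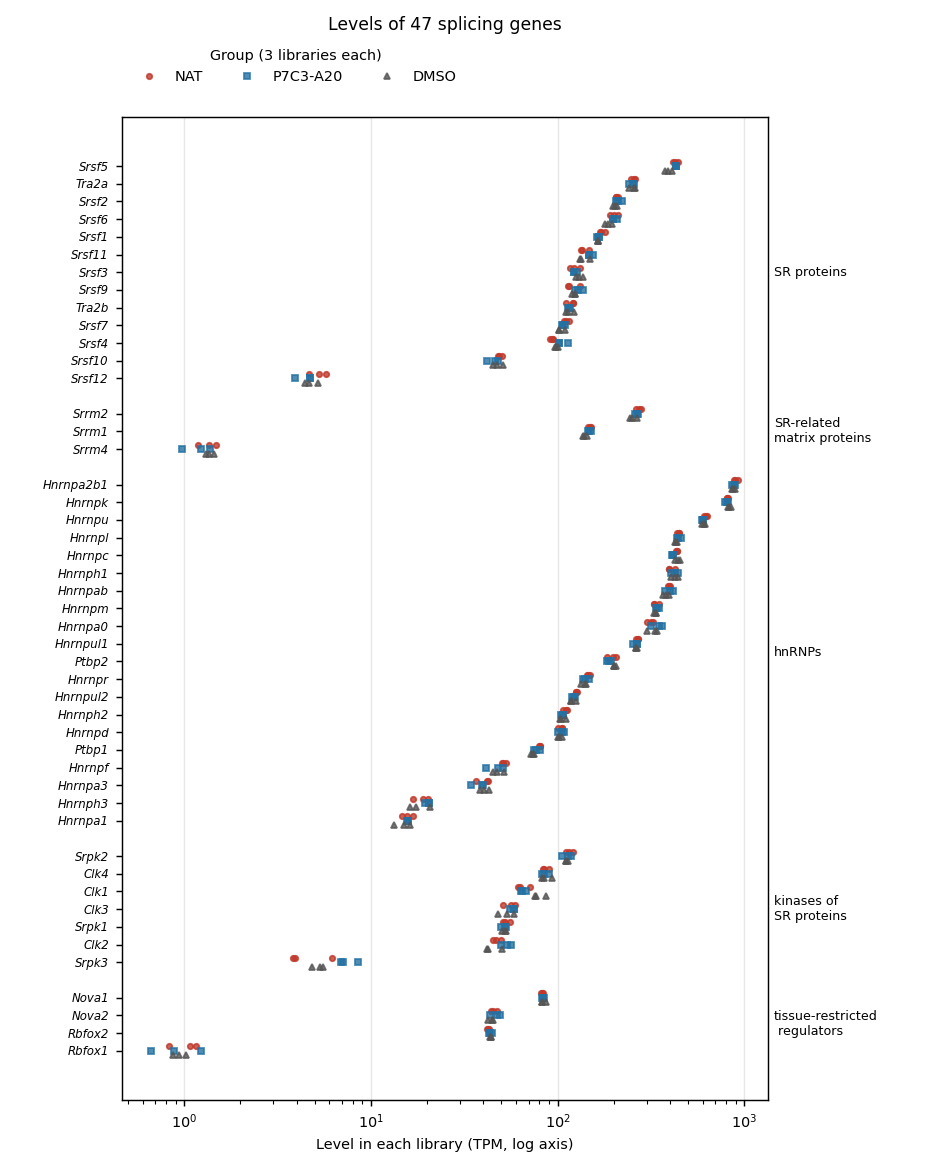
Level of each of the 47 splicing genes in each of the 9 libraries, in TPM on a log axis, with NAT libraries as red circles, P7C3-A20 as blue squares and DMSO as grey triangles, grouped by role and ordered by mean level. Hnrnpa2b1 stands highest at a mean of 884 TPM and Rbfox1 lowest at 0.964 TPM, and for most genes the 9 points lie close together.

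The compounds were compared with the vehicle, and with each other, by limma-trend on log2(TPM + 1), with p-values adjusted over all genes tested and a call below an adjusted p of 0.05. No splicing gene was called in any of the 3 comparisons. In NAT against DMSO, 0 of 47 were called, against 0.0289% of all genes, and 8 had an unadjusted p under 0.05, or 17.0%, against 11.7% of all genes. Of these 8, 7 were higher in NAT (14.9% of the splicing genes, against 8.67% of all genes) and only Clk1 was lower (2.13%, against 3.0% of all genes). In P7C3-A20 against DMSO, 0 of 47 were called, against 0.0217% of all genes. There, 9 had an unadjusted p under 0.05, or 19.1%, against 15.9% of all genes. Of these, 6 were higher in P7C3-A20 (12.8%, against 10.7% of all genes) and 3 were lower (6.38%, against 5.12%). In NAT against P7C3-A20, 0 of 47 were called, against 0.0% of all genes, and 4 had an unadjusted p under 0.05, or 8.51%, against 15.8% of all genes. Of these, 1 was higher in NAT (2.13%, against 9.92% of all genes) and 3 were lower (6.38%, against 5.89%). When the recovered reads were tested with voom instead, Clk1 was the 1 splicing gene called in NAT against DMSO, where 0.195% of all genes were called, and in P7C3-A20 against DMSO, where 1.84% were. In NAT against P7C3-A20, 2 splicing genes, Srsf4 and Srpk3, were called, beside 2.36% of all genes.

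The intervals of the fold changes were narrow for most members. The 95% interval lay wholly within a 1.25-fold change in either direction for 42 of 47 splicing genes in NAT against DMSO, where this held for 71.3% of all genes. It did so for 41 in P7C3-A20 against DMSO, against 69.3% of all genes, and for 42 in NAT against P7C3-A20, against 69.0% of all genes. These shares were not matched for level either. Simulated 1.25-fold and 1.5-fold changes were called in 43.3% and 95.8% of cases in the NAT against DMSO design. The P7C3-A20 against DMSO design gave 52.1% and 86.9%, and the NAT against P7C3-A20 design 45.8% and 94.7%. The simulation gave all genes the same spread beyond counting noise and no GC trend, and changed only genes averaging at least 5 TPM. These shares are therefore not the power for Srsf12, Srrm4 and Rbfox1, nor under the spread of the real libraries.

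**Figure D2:**
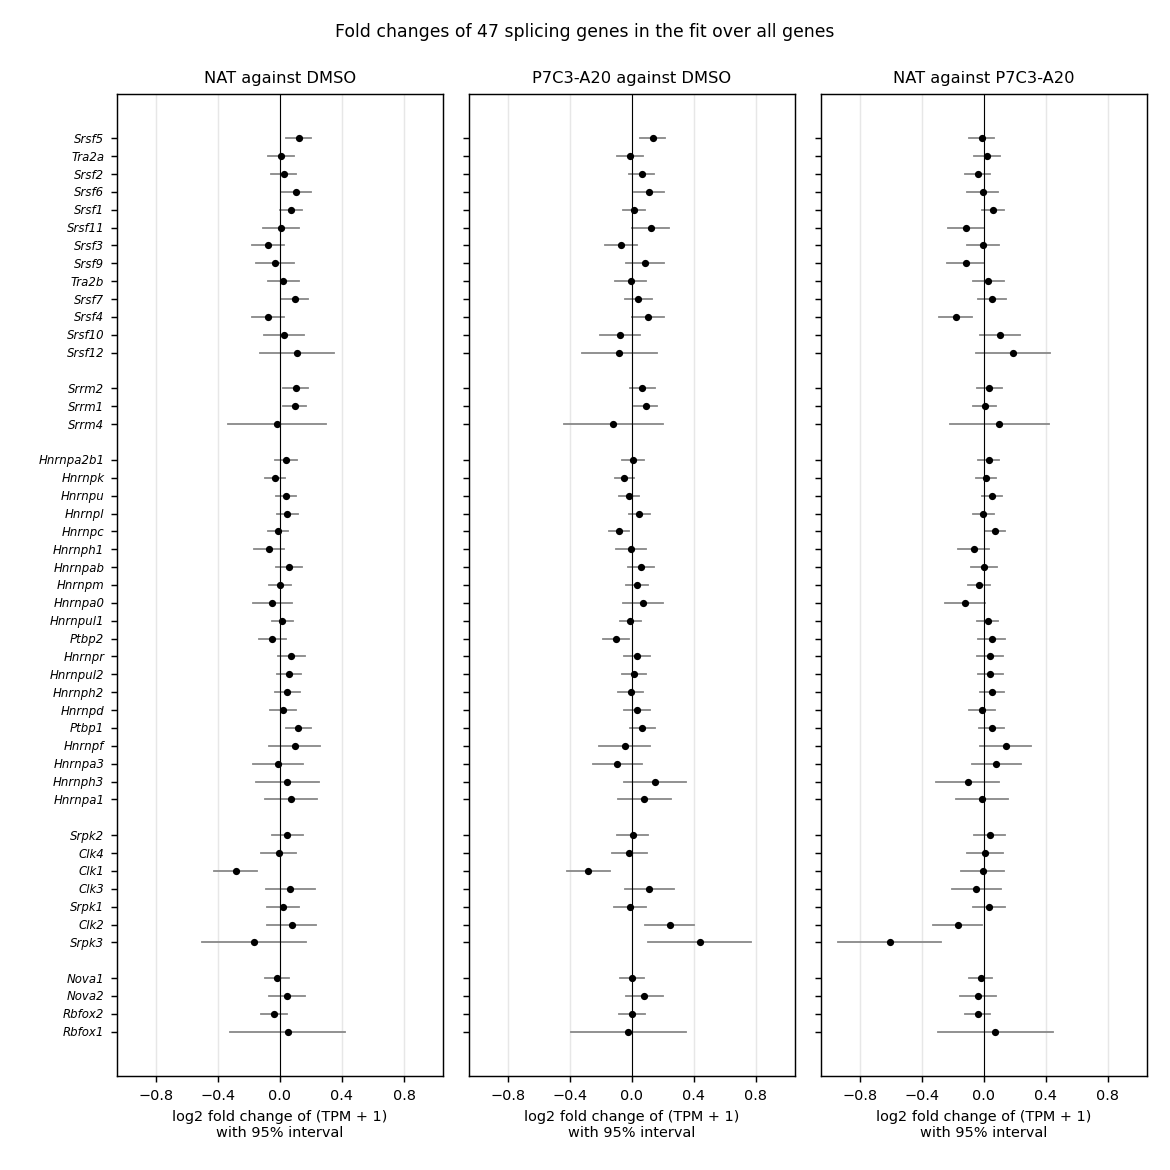
Log2 fold change of TPM + 1 (points) with its 95% interval (bars) for each of the 47 splicing genes, in NAT against DMSO, P7C3-A20 against DMSO and NAT against P7C3-A20, where values above 0 are higher in the group named first. Most intervals lie close to 0, Clk1 lies at -0.29 and -0.28 in the comparisons with DMSO, and the widest intervals belong to the low genes Srrm4, Srpk3 and Rbfox1.

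Among the kinases, Clk1 lay lower with both compounds than with the vehicle, with the lowest unadjusted p of any splicing gene in both comparisons, but missed the adjusted threshold. Clk1 is a nuclear kinase of SR proteins that also controls the splicing of its own transcript. It stood at 61.5, 63.2 and 70.9 TPM in NAT libraries, 64.9, 63.8 and 67.5 TPM in P7C3-A20 libraries, and 75.6, 77.0 and 86.4 TPM in DMSO libraries, from 881 to 1341 reads per library. Every library of either compound lay below every DMSO library, and the libraries of the compounds overlapped each other. The log2 fold change was -0.29 ± 0.06 (SE; 95% interval -0.42 to -0.15) in NAT against DMSO, with an adjusted p of 0.210 in limma-trend. In P7C3-A20 against DMSO it was -0.28 ± 0.06 (-0.42 to -0.14), with an adjusted p of 0.143. The DMSO libraries are the same in both comparisons, so these values are not independent. Under voom on the recovered reads the adjusted p was 0.00416 for NAT and 0.0098 for P7C3-A20. With the GC trend removed as well, voom gave 0.00645 for NAT, and for P7C3-A20 a log2 fold change of -0.21 and an adjusted p of 0.104, which lost the call. Over all alternatives the adjusted p ran from 0.00416 to 0.441 for NAT and from 0.0098 to 0.387 for P7C3-A20, and the sign was kept. Several of those alternatives leave the fold change unaltered by design. NAT and P7C3-A20 differed by -0.01 on the log2 scale, with an interval of -0.14 to 0.13, and by -0.10 with the GC trend removed (adjusted p 0.62 in limma-trend). No 50-base stretch of the longest Clk1 transcript occurred in another annotated gene. In these bulk samples, fewer cells of a type and less RNA per cell cannot be told apart.

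Clk4, the closest relative of Clk1, did not pass in any comparison. It was at 83.7, 85.1 and 90.1 TPM in NAT libraries, 85.1, 82.7 and 89.8 TPM in P7C3-A20 libraries, and 84.6, 82.8 and 93.2 TPM in DMSO libraries, so that the groups overlapped fully. The ratio of Clk1 to Clk4, chosen with its values in view and not tested, was 0.734, 0.742 and 0.787 in NAT libraries, 0.762, 0.772 and 0.752 in P7C3-A20 libraries, and 0.894, 0.931 and 0.927 in DMSO libraries. Both genes have a similar GC content, 39.2% for Clk1 and 38.8% for Clk4.

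Clk2, another member of the family, had its highest mean in P7C3-A20. It was at 46.9, 49.6 and 45.2 TPM in NAT libraries, 53.8, 56.3 and 49.6 TPM in P7C3-A20 libraries, and 42.5, 42.0 and 50.2 TPM in DMSO libraries. The third DMSO library lay within the P7C3-A20 range, and the NAT libraries lay at or below the lowest P7C3-A20 library. Against DMSO, P7C3-A20 gave a log2 fold change of 0.24 ± 0.07 (0.09 to 0.40), with an adjusted p of 0.178 in limma-trend. It was 0.08 ± 0.07 in NAT against DMSO (adjusted p 0.715 in limma-trend), running from 0.03 without the second DMSO library to 0.16 without the third, and -0.17 ± 0.07 in NAT against P7C3-A20 (adjusted p 0.293). Clk2 is rich in GC at 55.4%, and with each library's GC trend removed the P7C3-A20 value was 0.17. Clk3 lay between 47.7 and 59.4 TPM over the 9 libraries, with overlapping groups in each comparison.

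Of the Srpk kinases, Srpk2 was the most abundant, at 115.7, 110.9 and 120.7 TPM in NAT libraries, 118.2, 113.8 and 106.0 TPM in P7C3-A20 libraries, and 111.0, 111.3 and 113.7 TPM in DMSO libraries. The groups overlapped, and Srpk1 averaged 52.2 TPM over all libraries. Neither passed the test in any comparison. Srpk3, best known from skeletal muscle, was low, at 3.84, 3.94 and 6.23 TPM in NAT libraries, 6.90, 7.06 and 8.57 TPM in P7C3-A20 libraries, and 4.86, 5.36 and 5.57 TPM in DMSO libraries. Every P7C3-A20 library was above every NAT and every DMSO library, and the NAT libraries spanned the DMSO range. These levels rest on 35 to 97 reads per library. In NAT against P7C3-A20 its log2 fold change was -0.61 ± 0.15 (-0.94 to -0.27), with an adjusted p of 0.182 in limma-trend. The adjusted p was 0.0311 under voom on the reads, and 0.0563 with the GC trend removed as well, which lost the call. It was 0.44 ± 0.15 in P7C3-A20 against DMSO (adjusted p 0.217 in limma-trend) and -0.17 ± 0.15 in NAT against DMSO (adjusted p 0.700). The NAT value was -0.07 without the first NAT library, -0.08 without the second and -0.36 without the third.

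**Figure D3:**
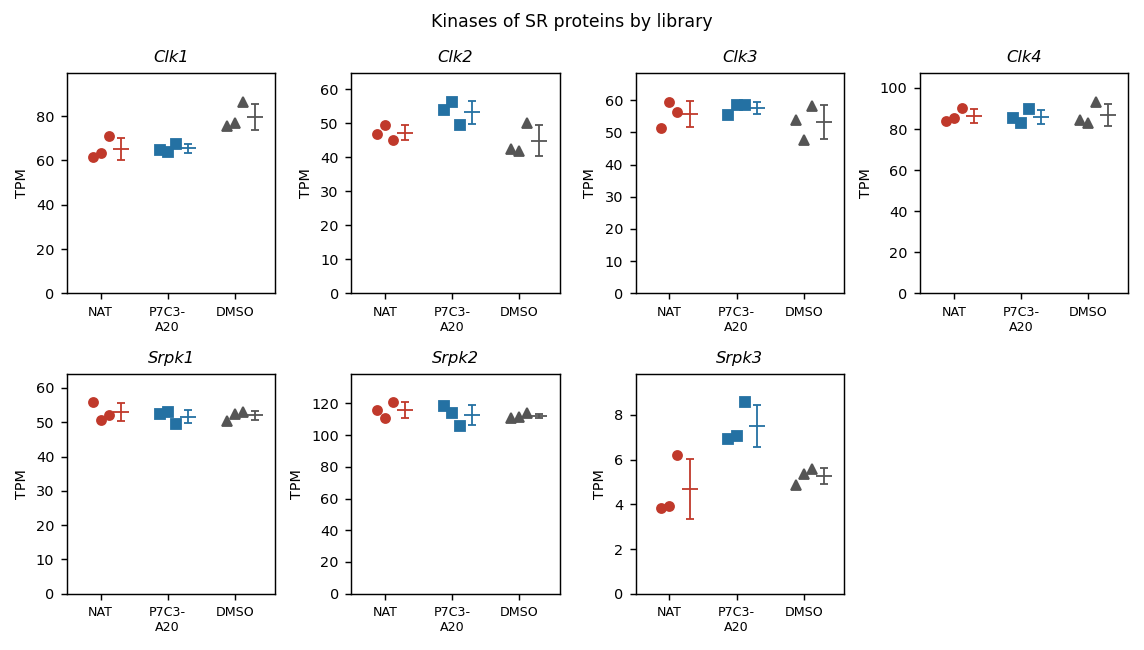
Level in TPM of the 7 kinases of SR proteins in each library (points), with the mean and SD of each group (3 libraries) beside them, and each axis starting at 0. Clk1 is lower in all NAT and P7C3-A20 libraries (61.5 to 70.9 TPM) than in DMSO libraries (75.6 to 86.4 TPM), Clk4 shows no such gap, and Srpk3 is highest in P7C3-A20 libraries.

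Among the SR proteins, Srsf5 was the most abundant and gave the lowest unadjusted p in both comparisons with DMSO. Srsf5, also known as SRp40, stood at 417, 425 and 441 TPM in NAT libraries, 431, 429.9 and 433 TPM in P7C3-A20 libraries, and 376.1, 392.3 and 410.7 TPM in DMSO libraries. All libraries of both compounds lay above all DMSO libraries, by a small margin. The log2 fold change was 0.12 ± 0.04 (0.04 to 0.20) in NAT against DMSO and 0.13 ± 0.04 (0.05 to 0.22) in P7C3-A20 against DMSO. The adjusted p was 0.281 in the NAT comparison and 0.166 in the P7C3-A20 comparison, both in limma-trend. NAT and P7C3-A20 differed by -0.01, with an interval of -0.09 to 0.07, and by -0.10 with the GC trend removed (adjusted p 0.404 in limma-trend), outside that interval. With the GC trend removed the value for P7C3-A20 against DMSO was 0.20, and voom with the GC trend removed gave an adjusted p of 0.0306. In the longest Srsf5 transcript, 11.2% of 50-base stretches occur in other annotated genes, so some of its reads could be shared.

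Srsf4 differed most between the compounds among the SR proteins by p-value. Srsf4 was at 91.28, 93.41 and 95.01 TPM in NAT libraries, 102.4, 101.3 and 114.3 TPM in P7C3-A20 libraries, and 96.5, 97.9 and 101.2 TPM in DMSO libraries. The NAT libraries were the lowest, the P7C3-A20 libraries the highest, and no group overlapped another. Between NAT and P7C3-A20 its log2 fold change was -0.18 ± 0.05 (-0.29 to -0.08), with an adjusted p of 0.187 in limma-trend. The adjusted p was 0.0377 under voom on the reads, and 0.0984 with the GC trend removed as well, which lost the call. It was -0.08 ± 0.05 in NAT against DMSO (adjusted p 0.533 in limma-trend) and 0.10 ± 0.05 in P7C3-A20 against DMSO (adjusted p 0.318). The P7C3-A20 value against DMSO was 0.05 without the third P7C3-A20 library, and also with the GC trend removed. This value is uncertain, because 47.3% of the 50-base stretches of the Srsf4 transcript also lie in the annotated gene Gm12992. Srsf11, an SR-related splicing factor, was at 133.4, 135.0 and 147.6 TPM in NAT libraries, 148.2, 147.7 and 154.5 TPM in P7C3-A20 libraries, and 133.4, 131.5 and 149.2 TPM in DMSO libraries. The lowest P7C3-A20 library lay just above the highest NAT library and below the highest DMSO library. Its log2 fold change was -0.11 ± 0.05 in NAT against P7C3-A20 (adjusted p 0.326 in limma-trend, and -0.17 with the GC trend removed) and 0.12 ± 0.05 in P7C3-A20 against DMSO (adjusted p 0.300).

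The other 10 SR proteins, which include Srsf1 and Srsf2, the founding members of the family, did not pass either. Tra2a averaged 252.9 TPM, Srsf2 208 TPM, Srsf6 197 TPM and Srsf1 168 TPM over the 9 libraries. Srsf12 was the least abundant at 4.82 TPM. Srsf1, Srsf6 and Srsf7 were among the 8 genes with an unadjusted p under 0.05 in NAT against DMSO, all higher in NAT, and Srsf6 was also among the 9 in P7C3-A20 against DMSO. Srsf1 averaged 173 ± 5.4 TPM in NAT, 166 ± 2.4 TPM in P7C3-A20 and 164 ± 0.88 TPM in DMSO libraries, Srsf6 201 ± 9.8 TPM in NAT, 202 ± 5.9 TPM in P7C3-A20 and 187 ± 8.0 TPM in DMSO libraries, and Srsf7 111.4 ± 3.8 TPM in NAT, 107 ± 2.2 TPM in P7C3-A20 and 104 ± 4.4 TPM in DMSO libraries (SD, n = 3 each). In NAT against DMSO the adjusted p in limma-trend was 0.414 for Srsf1, 0.416 for Srsf6 and 0.406 for Srsf7. Against DMSO, P7C3-A20 gave 0.848 for Srsf1, 0.270 for Srsf6, which lay above DMSO in all P7C3-A20 libraries, and 0.632 for Srsf7. The level of Srsf2 is uncertain, since 35.2% of the 50-base stretches of its transcript occur in other annotated genes.

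Srrm1 and Srrm2, large arginine-serine proteins of nuclear speckles that bridge splicing factors, averaged slightly higher with both compounds and did not pass the test. Srrm1 was at 145, 149 and 152 TPM in NAT libraries, 145, 148 and 151 TPM in P7C3-A20 libraries, and 136, 138 and 143 TPM in DMSO libraries. Both compounds lay above DMSO in every library. Its log2 fold change was 0.10 ± 0.03 in NAT against DMSO (adjusted p 0.330 in limma-trend) and 0.09 ± 0.03 in P7C3-A20 against DMSO (adjusted p 0.240). Srrm2 was at 265, 274 and 279 TPM in NAT libraries, 269, 260.2 and 268 TPM in P7C3-A20 libraries, and 246, 249.8 and 266 TPM in DMSO libraries, where the third DMSO library overlapped both compounds. Its log2 fold change was 0.10 ± 0.04 in NAT against DMSO (adjusted p 0.338 in limma-trend) and 0.07 ± 0.04 in P7C3-A20 against DMSO (adjusted p 0.402, and 0.03 with the GC trend removed). Srrm4, the neuronal member also called nSR100, was near the filter of 1 TPM in all groups, from 41 to 59 reads per library. It was at 1.182, 1.362 and 1.489 TPM in NAT libraries, 1.232, 0.9694 and 1.369 TPM in P7C3-A20 libraries, and 1.449, 1.313 and 1.357 TPM in DMSO libraries. The groups overlapped. It did not pass in any comparison, and its intervals reached from -0.44 to 0.42 on the log2 scale. Srrm3, a paralogue outside the rule, averaged 1.515 ± 0.227 TPM in NAT, 2.377 ± 0.298 in P7C3-A20 and 2.219 ± 0.293 in DMSO libraries (SD). All NAT libraries lay below both other groups. The log2 fold change of Srrm3 was -0.36 in NAT against DMSO (adjusted p 0.382 in limma-trend) and -0.43 in NAT against P7C3-A20 (adjusted p 0.218), so it did not pass.

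Among the hnRNPs, the most abundant gene was Hnrnpa2b1, a carrier and splicing repressor, at 879.3, 888.8 and 928.3 TPM in NAT libraries, 894.5, 880.8 and 862.8 TPM in P7C3-A20 libraries, and 891.2, 857.9 and 875.2 TPM in DMSO libraries. All groups overlapped. Ptbp1, the polypyrimidine tract binding protein of progenitors, was at 79.3, 80.7 and 80.2 TPM in NAT libraries, 76.36, 80.6 and 75.04 TPM in P7C3-A20 libraries, and 74.0, 72.35 and 74.68 TPM in DMSO libraries. Both compounds lay above DMSO in every library. The log2 fold change was 0.12 ± 0.04 (0.04 to 0.20) in NAT against DMSO, with an adjusted p of 0.292 in limma-trend. It was 0.07 ± 0.04 in P7C3-A20 against DMSO (adjusted p 0.390 in limma-trend), and 0.01 once the GC trend was removed. In the Ptbp1 transcript, 22.6% of 50-base stretches occur in other annotated genes.

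Ptbp2, the neuronal paralogue, was the more abundant of the pair. It was at 198, 185 and 205 TPM in NAT libraries, 189, 193 and 185 TPM in P7C3-A20 libraries, and 202, 202 and 205 TPM in DMSO libraries. The P7C3-A20 libraries lay below all DMSO libraries, and the NAT libraries overlapped them. The log2 fold change was -0.10 ± 0.04 in P7C3-A20 against DMSO (adjusted p 0.250 in limma-trend) and -0.05 ± 0.04 in NAT against DMSO (adjusted p 0.648). The NAT value was -0.0088 without the second NAT library and -0.08 without the third. The ratio of Ptbp2 to Ptbp1, also chosen with its values in view and not tested, was 2.5, 2.29 and 2.55 in NAT libraries, 2.48, 2.39 and 2.46 in P7C3-A20 libraries, and 2.73, 2.78 and 2.75 in DMSO libraries. It was lower in every library of either compound than in DMSO. The genes lie far apart in GC content, 34.2% for Ptbp2 and 53.7% for Ptbp1, and after removal of the GC trend the P7C3-A20 differences were -0.05 for Ptbp2 and 0.01 for Ptbp1, and the NAT differences -0.07 and 0.09. Ptbp3, a further paralogue outside the rule, was at 38.1 ± 1.4 TPM in NAT, 32.5 ± 2.1 TPM in P7C3-A20 and 37.0 ± 0.54 TPM in DMSO libraries (SD, n = 3 each), and did not pass in any comparison.

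Hnrnpc, which binds uridine tracts, was at 439, 431 and 436 TPM in NAT libraries, 414, 418 and 412 TPM in P7C3-A20 libraries, and 450.4, 441 and 427 TPM in DMSO libraries. The P7C3-A20 libraries were the lowest and overlapped neither of the other groups. The log2 fold change was -0.08 ± 0.03 in P7C3-A20 against DMSO (adjusted p 0.220 in limma-trend) and 0.07 ± 0.03 in NAT against P7C3-A20 (adjusted p 0.281). With the GC trend removed these values were -0.04 and -0.01, so the sign between the compounds turned. The other 16 hnRNPs ranged from 15.4 TPM for Hnrnpa1 to 815 TPM for Hnrnpk, and none passed. The low value of Hnrnpa1 is uncertain, since 28.3% of the 50-base stretches of its transcript occur in 19 other annotated genes, and the same holds for Hnrnpf (67.3%), Hnrnpk (37.8%), Hnrnpab (29.0%), Hnrnpm (28.8%) and Hnrnpa3 (28.2%). Hnrpdl and Hnrpll, listed under older symbols that the rule does not reach, averaged 205 and 101 TPM in NAT, 201 and 94.3 TPM in P7C3-A20, and 196 and 97.7 TPM in DMSO libraries, and did not pass.

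**Figure D4:**
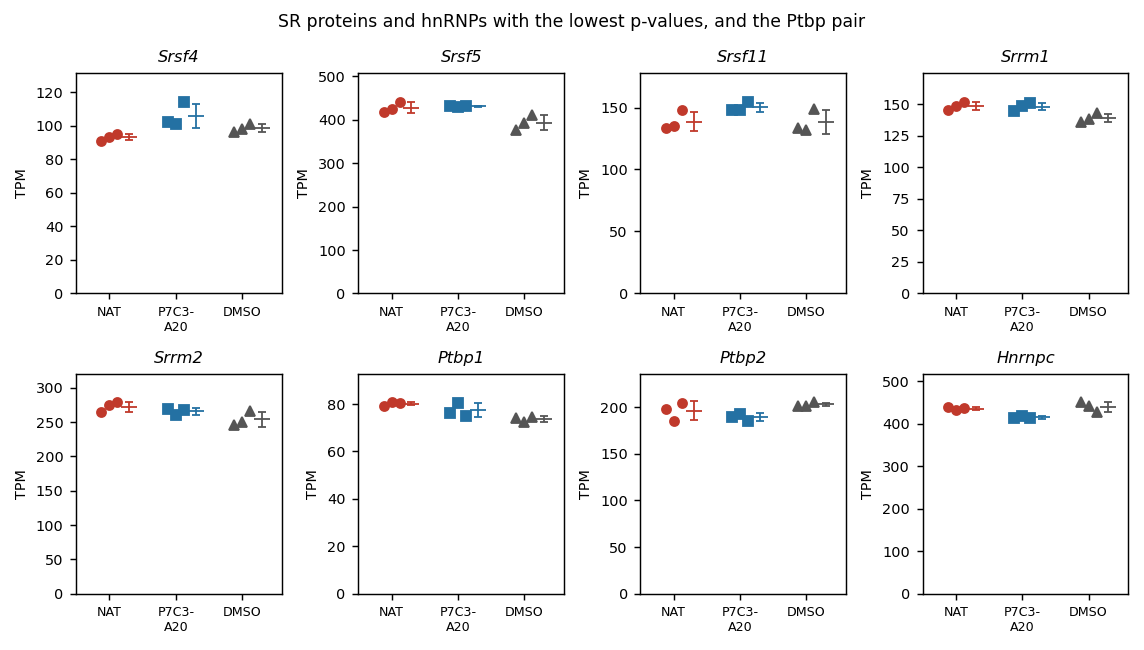
Level in TPM of 8 splicing regulators in each library (points), with the mean and SD of each group (3 libraries) beside them, and each axis starting at 0. Srsf4 separates NAT (91.28 to 95.01 TPM) from P7C3-A20 (101.3 to 114.3 TPM), and Srsf5, Srrm1 and Ptbp1 lie above DMSO in all libraries of both compounds.

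The tissue-restricted regulators differed widely in level and little between groups. Nova1, a neuronal RNA-binding protein, was at 83.78, 81.42 and 83.04 TPM in NAT libraries, 84.09, 84.7 and 82.81 TPM in P7C3-A20 libraries, and 82.53, 82.63 and 86.4 TPM in DMSO libraries. Nova2 was at 43.77, 45.17 and 47.22 TPM in NAT libraries, 43.42, 47.26 and 49.22 TPM in P7C3-A20 libraries, and 42.46, 44.97 and 44.53 TPM in DMSO libraries. For both genes all groups overlapped. In the Nova2 transcript, 30.8% of 50-base stretches occur in other annotated genes. Rbfox2, which is widely expressed, was at 42.31, 42.15 and 42.78 TPM in NAT libraries, 43.35, 42.87 and 44.65 TPM in P7C3-A20 libraries, and 43.25, 43.83 and 43.75 TPM in DMSO libraries, so that NAT lay wholly below both other groups by a narrow margin, and those overlapped. Rbfox1, found mainly in neurons and muscle, was near the filter of 1 TPM, from 21 to 39 reads per library. It was at 0.8255, 1.077 and 1.155 TPM in NAT libraries, 1.236, 0.8814 and 0.6645 TPM in P7C3-A20 libraries, and 1.028, 0.938 and 0.8712 TPM in DMSO libraries, with overlapping groups. None of the 4 passed in any comparison. The neuronal nuclear marker Rbfox3, outside the rule, was at 1.61 ± 0.27 TPM in NAT, 2.07 ± 0.06 TPM in P7C3-A20 and 1.63 ± 0.30 TPM in DMSO libraries (SD, n = 3 each), and did not pass either.

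The members shared features that the symbols do not fix. Their median GC content was 44.8%, below the 49.7% of all tested genes, and 33 of 47 lay under that median. GC content was taken from the longest annotated transcript of each gene, which may not be the form counted in these data. The libraries differed in how level followed GC content. Slopes were taken on each gene's log2 deviation from its mean over the 9 libraries, for genes averaging at least 5 TPM. They are thus relative to the average library. The slope per 10 points of GC was -0.0661, 0.0038 and -0.0314 in NAT libraries, 0.0165, 0.0384 and 0.122 in P7C3-A20 libraries, and -0.056, -0.0232 and -0.00438 in DMSO libraries. The steepest slope was that of the third P7C3-A20 library. The median log2 fold change of the 47 genes was 0.03 in NAT against DMSO, 0.02 in P7C3-A20 against DMSO and 0.01 in NAT against P7C3-A20, beside 0.03, 0.01 and 0.01 over all tested genes. As deposited, 32 of 47 splicing genes (68.1%) were above 0 in NAT against DMSO, beside 63.5% of all genes, 28 (59.6%) in P7C3-A20 against DMSO, beside 55.2%, and 26 (55.3%) in NAT against P7C3-A20, beside 54.0%. In NAT against DMSO, quantile normalization and GC removal both moved the medians of the splicing genes (to 0.0022 and -0.0026) and of all genes (to 0.0019 and 0.0017) together, and 25 and 23 splicing genes (53.2% and 48.9%) were then above 0, beside 50.8% of all genes in both fits. In the comparisons with P7C3-A20, GC removal moved the splicing genes and left all genes near 0. The median of the splicing genes was then 0.041 in P7C3-A20 against DMSO, with 33 genes above 0 (70.2%, beside 49.4% of all genes), and -0.042 in NAT against P7C3-A20, with 11 above 0 (23.4%, beside 50.4%). The all-gene medians in those fits were -0.00099 and 0.00085. GC removal changed the sign of 9 of 47 splicing genes in NAT against DMSO and of 13 in P7C3-A20 against DMSO. Between NAT and P7C3-A20 it changed the sign of 19. Clk1, Clk2, Srpk3, Srsf4 and Srsf5 kept the sign of their differences from DMSO.

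**Figure D5:**
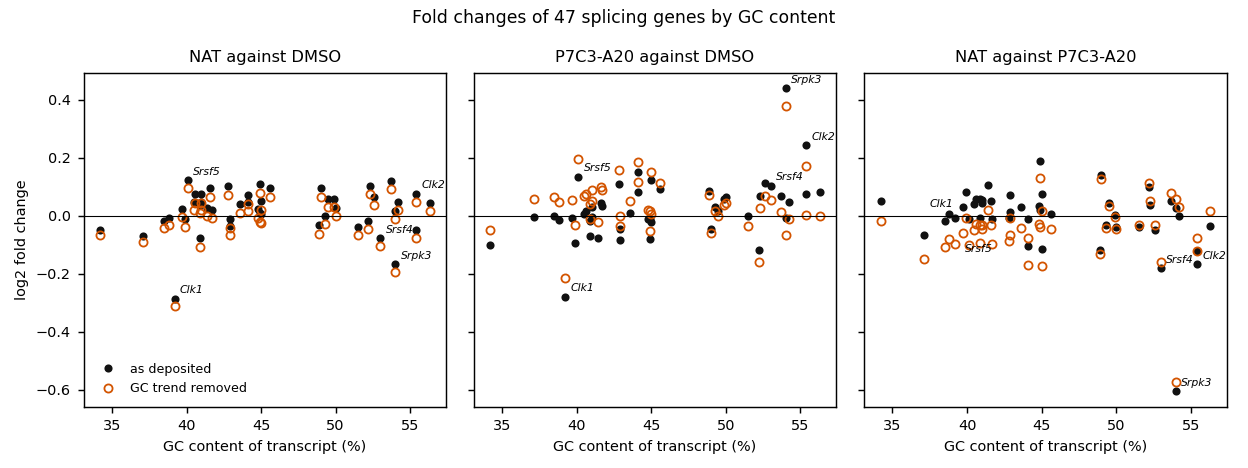
Log2 fold change of each of the 47 splicing genes against the GC content of its longest transcript (%), in NAT against DMSO, P7C3-A20 against DMSO and NAT against P7C3-A20, as deposited (filled) and with each library's GC trend removed (open). Removal of the trend takes genes above 0 to 23, 33 and 11 of 47, and Clk1 stays below 0 in both comparisons with DMSO.

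For a minority of the members, the libraries of the compared groups did not overlap. In NAT against DMSO, 6 of 47 lay wholly higher in NAT and 4 wholly lower, or 12.8% and 8.51%, against 14.1% and 4.89% of all genes. In P7C3-A20 against DMSO, 9 lay wholly higher and 3 wholly lower, or 19.1% and 6.38%, against 13.1% and 7.49% of all genes. In NAT against P7C3-A20, 5 lay wholly higher and 5 wholly lower, or 10.6% each way, against 13.3% and 8.35% of all genes. Beside the genes given by library above, Hnrnpl lay wholly above DMSO with both compounds, Srsf1 and Hnrnpr with NAT, and Hnrnpm, Srsf6 and Srsf9 with P7C3-A20. Hnrnpk and Rbfox2 lay wholly below DMSO with NAT.

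The promoters of Srsf5, Clk2 and Clk4 are shown because they carry, close to the start, a short motif that many of these genes share. The motif is TGACG, the core of the cAMP response element, searched on both strands in the 250 bases before the RefSeq start (RefSeq, GRCm38.p6), where 44 of the 47 genes matched and Clk1, Rbfox2 and Hnrnpul2 did not. Capitals mark TGACG or its complement. The windows are chr12:80945249-80945498 for Srsf5, chr3:89164545-89164794 for Clk2 and chr11:51262864-51263113 for Clk4, all on the plus strand.
Srsf5: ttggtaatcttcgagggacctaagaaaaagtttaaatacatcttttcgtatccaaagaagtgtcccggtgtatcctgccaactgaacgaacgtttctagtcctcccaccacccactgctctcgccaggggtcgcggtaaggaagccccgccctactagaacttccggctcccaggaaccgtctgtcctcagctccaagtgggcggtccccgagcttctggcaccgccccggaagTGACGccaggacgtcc
Clk2: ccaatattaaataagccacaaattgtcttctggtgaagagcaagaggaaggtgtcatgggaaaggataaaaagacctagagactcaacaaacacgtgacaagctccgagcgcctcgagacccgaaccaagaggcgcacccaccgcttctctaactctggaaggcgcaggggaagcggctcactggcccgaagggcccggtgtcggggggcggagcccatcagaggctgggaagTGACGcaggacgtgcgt
Clk4: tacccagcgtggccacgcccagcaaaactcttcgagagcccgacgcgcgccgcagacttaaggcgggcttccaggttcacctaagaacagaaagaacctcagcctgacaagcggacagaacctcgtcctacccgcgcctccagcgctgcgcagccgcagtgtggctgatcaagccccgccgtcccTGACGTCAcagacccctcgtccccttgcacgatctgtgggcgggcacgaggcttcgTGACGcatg
TGACG occurs once upstream of Srsf5, ending 12 bases before the start, and once upstream of Clk2, ending 13 bases before it. Upstream of Clk4 there are 3 matches, a pair of which overlap in the full palindrome TGACGTCA. TGACG was found in 22 of 44 member promoters, or 50%, and in 17.9% of 27025 promoters in the table, and the full palindrome in 2 of 44, or 4.55%, and in 1.62% of all. The GC box GGGCGG was found in 31 of 44, or 70.5%, against 32.9% of all promoters. CCAAT was found in 43.2% of member promoters, against 34.5% of all, and TATAAA in 9.09%, against 13%. The member promoters were also richer in GC, with a median of 62.0% against 52.0%, and held a median of 21 CpG sites against 6. The 27025 promoters include genes that did not enter the test, and shares among the tested genes alone were not computed. The part of base composition and of expression in the motif shares was not tested. These matches describe letters, and factor binding was not measured.

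Other genes of the splicing pathway were read beside the members. They were 52 tested core spliceosome genes, 45 other splicing regulators and 16 genes of nonsense-mediated decay and the exon junction complex. None of these was called in any comparison in limma-trend, and voom was not read for these lists. Over all genes, an unadjusted p under 0.05 was reached by 8.67% higher and 3.0% lower in NAT against DMSO, by 10.7% and 5.12% in P7C3-A20 against DMSO, and by 9.92% and 5.89% in NAT against P7C3-A20. In the core spliceosome, 2 were higher and 0 lower at an unadjusted p under 0.05 in NAT against DMSO, 9 and 4 in P7C3-A20 against DMSO, and 6 and 5 in NAT against P7C3-A20. Eftud2, a GTPase of the U5 particle, averaged 195 ± 2.3 TPM in NAT, 193 ± 9.3 TPM in P7C3-A20 and 175.5 ± 5.2 TPM in DMSO libraries (SD, n = 3 each), with an adjusted p of 0.241 in limma-trend for NAT against DMSO. Snrnp70, the U1 protein that SR proteins contact at the splice site, averaged 379 ± 17.6 TPM in NAT, 414 ± 29.0 TPM in P7C3-A20 and 351 ± 15.9 TPM in DMSO libraries, with an adjusted p of 0.152 for P7C3-A20 against DMSO. Among the other regulators, 3 were higher and 3 lower at an unadjusted p under 0.05 in NAT against DMSO, 7 and 3 in P7C3-A20 against DMSO, and 5 and 3 in NAT against P7C3-A20. Matr3, a nuclear matrix protein that works with Ptbp1, averaged 324 ± 9.4 TPM in NAT, 299 ± 8.3 TPM in P7C3-A20 and 332 ± 9.1 TPM in DMSO libraries, with an adjusted p of 0.154 for P7C3-A20 against DMSO. In the decay list, 2 were higher and 0 lower in NAT against DMSO, 4 and 0 in P7C3-A20 against DMSO, and 1 and 2 in NAT against P7C3-A20. Casc3, a core protein of the exon junction complex, averaged 66.8 ± 1.6 TPM in NAT, 67.8 ± 1.1 TPM in P7C3-A20 and 60.7 ± 1.9 TPM in DMSO libraries, with an adjusted p of 0.260 for NAT and 0.155 for P7C3-A20 against DMSO. The median log2 fold changes in NAT against DMSO were 0.01, 0.04 and 0.06 for these 3 lists, beside 0.03 over all genes. They were 0.02, 0.04 and 0.05 in P7C3-A20 against DMSO, beside 0.01, and -0.0091, -0.0093 and 0.0227 in NAT against P7C3-A20, beside 0.0114.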

How the data were processed

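The table deposited by the authors holds TPM for 23420 symbols in 9 libraries, each summing to 1000000. Per the submitters' processing notes, Bowtie 0.12.2 and the builds mm8 and mm9 were used, with no role given. The counter is not given in the sources used here, nor is the annotation. Per the labels' protocols, an Illumina TruSeq kit made the libraries and strand is not stated, so overlapping antisense genes cannot be told apart. In the table, 27 names had been turned into dates.

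Genes with at least 1 TPM in at least 3 libraries (13839) entered 1 limma-trend fit (limma 3.58.1, R 4.3.3) of log2(TPM + 1) on group over all 9 libraries, with 6 residual degrees of freedom. Benjamini-Hochberg adjustment was used on two-sided p-values. The logged fold change understates the change of low genes. Errors of fold changes are standard errors. Whole reads were recovered from the TPM steps, within a tolerance of 0.001, for 19301 of 19302 genes above 0 (99.99%), all but Rn45s. The GC content was that of the longest GENCODE transcript (GRCm38), and its trend was a spline with 5 degrees of freedom. Shared stretches of 50 bases were counted over those transcripts. The fit was tested on simulated data with 200 changed genes, all averaging at least 5 TPM, and the same spread beyond counting noise for every gene. Other steps used Python 3.11.15, pandas 2.3.3, numpy 2.4.6 and matplotlib 3.10.9.

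Members and lists were chosen with earlier results of these data known. Values in every library were printed for the 5 members of lowest p in each comparison, the most abundant member of each role and the regulators of neuron-type splicing. Clk4 and the ratios were chosen after their values were seen. Ratios of Clk2 to Clk1 and of Srsf4 to Srsf5 were also computed. The former was higher in every library of either compound than in DMSO. The latter ran from 0.236 to 0.264 in P7C3-A20 and from 0.246 to 0.257 in DMSO libraries, and was lower in every NAT library. Alternatives were quantile normalization, other filters and pseudocounts, a replicate block, the compared libraries alone, removal of the GC trend, voom with TMM scaling on the reads, and each library left out.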

Additional observations from a re-analysis of the deposited data

How the results depend on the processing

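From the 18 splicing genes named by rule, 28 fold changes were chosen and each was refitted under 16 alternatives. All are printed in the text except that of Ptbp1 in NAT against P7C3-A20. None belongs to Hnrnpa2b1, Srpk2, Srrm4, Nova1, Nova2, Rbfox1 or Rbfox2. Of the 448 alternative values of these 28, 434 kept their direction and their side of the threshold. Another 7 passed the threshold only under an alternative, and 7 changed sign. The fits with no filter, a minimum of 5 TPM, a replicate block or the compared libraries alone could change p-values but not fold changes. The GC fit with the replicate block repeats the fold changes of the GC fit without it. The counts of kept direction therefore overstate the number of separate checks. Over all comparisons of the 18 genes, 68 of 858 alternative values changed sign, among them Srsf11 in NAT against DMSO (8 of 16), and Rbfox2 (7) and Nova1 (6) in P7C3-A20 against DMSO. Causes were not tested. Over all genes, 4 were called in NAT against DMSO. This became 2 with a minimum of 5 TPM, 1 with a pseudocount of 0.1, 7 with the 6 compared libraries alone, 27 (7 higher, 20 lower) with voom, 53 (22 higher, 31 lower) with voom and the GC trend removed, and 1 to 11 with 1 library left out (1 without NAT 3 or DMSO 3, 11 without DMSO 2). In P7C3-A20 against DMSO, 3 were called. This became 0 with a minimum of 5 TPM or a pseudocount of 0.1, 7 with the replicate block, 5 with 6 libraries, 1 with the GC trend removed and the replicate block, 254 (140 higher, 114 lower) with voom, 35 (22 higher, 13 lower) with voom and the GC trend removed, and 1 to 10 with 1 library left out (1 without P7C3-A20 1, 2 or 3, 10 without DMSO 3). In NAT against P7C3-A20, 0 were called, 2188 had an unadjusted p under 0.05, and the count became 1 with the replicate block, 5 with 6 libraries, 326 (196 higher, 130 lower) with voom, 62 (35 higher, 27 lower) with voom and the GC trend removed, and 0 to 1 with 1 library left out (1 without P7C3-A20 2).

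Of the splicing genes, 1 was called in NAT against DMSO (Clk1) with voom, with voom and the GC trend removed, and with the GC trend removed and the replicate block, where its log2 fold change was -0.31 and its adjusted p 0.0295. In P7C3-A20 against DMSO, 1 was called with voom (Clk1) and 1 with voom and the GC trend removed (Srsf5), and in NAT against P7C3-A20, 2 with voom (Srsf4 at -0.20 and Srpk3 at -0.72). With libraries left out, 0 were called in each comparison.

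The median log2 fold change of the splicing genes in NAT against DMSO was 0.0022 with quantile normalization, -0.0026 with the GC trend removed, with or without the replicate block, -0.0040 with voom and -0.0036 with voom and the GC trend removed, and the median of all genes moved alike, to 0.0019, 0.0017, 0.0015 and 0.0013. In P7C3-A20 against DMSO it was -0.0072 with quantile normalization, 0.041 with the GC trend removed, with or without the replicate block, and 0.047 with voom and the GC trend removed, beside -0.0039, -0.00099 and 0.0010 over all genes. In NAT against P7C3-A20 it was -0.042 with the GC trend removed, with or without the replicate block, and -0.050 with voom and the GC trend removed, beside 0.00085 and -0.0022 over all genes. Of single genes in NAT against P7C3-A20, Hnrnpc turned to -0.0079 with the GC trend removed, with or without the replicate block, and -0.015 with voom and the GC trend removed. Near 0 as reported, Clk1 ran from -0.068 to 0.034 with 1 library left out, above 0 without NAT 1, NAT 2 (0.014) or P7C3-A20 3 (0.016), and Srsf5 from -0.035 to 0.0053, above 0 without NAT 1.

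Whether libraries with the same number shared a culture cannot be settled with 3 libraries per group. The correlation of their deviations from the group mean ran from -0.0239 to 0.124 over 9 pairs and exceeded 0.1 in 1. For libraries with different numbers it ran from -0.158 to 0.0842. With the replicate block, the adjusted p of Clk1 in limma-trend was 0.0893 for NAT and 0.058 for P7C3-A20 against DMSO. Depth limits Srpk3, Srrm4, Rbfox1 and Srsf12 most, and gene-level TPM cannot show which exons were used.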
